A study of Mus musculus with 4 samples.

Results

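The 10 genes described here act in the uptake and storage of lipid: Msr1, Cd36, Olr1, Fabp4, Fabp5, Lipa, Npc2, Npc1, Soat1 and Plin2. They were chosen by name, with earlier results of these data known, and each matched 1 of the 53647 genes listed in the count tables. They were measured by droplet-based 3′ single-cell RNA sequencing with unique molecular identifiers (UMIs, which count each captured RNA molecule once) in spinal cord of aged mice of the inbred laboratory strain C57BL/6J. All mice had a spinal cord injury, and the lesion segment was taken 28 days later. They were given either IgG, the control antibody (2 libraries), or Anti-CD8, an antibody against the co-receptor of cytotoxic T cells (2 libraries). The labels give neither the number of mice in a library nor their exact age or sex, so the p-values below measure the spread between these libraries.

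Phagocytes that clear debris after injury take up lipid through surface receptors and break it down in the lysosome. MSR1, CD36 and OLR1 are scavenger receptors that bind modified lipoproteins, and CD36 also takes up fatty acids. In the lysosome the acid lipase LIPA frees cholesterol from its esters, and NPC2 passes it to NPC1, which exports it. SOAT1 makes cholesteryl esters again, PLIN2 coats the lipid droplets that store them, and FABP4 and FABP5 carry fatty acids through the cytosol. In the injured central nervous system, cells filled with droplets in this way are known as foam cells, and myelin is a main source of their lipid.

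The libraries held 152457679 to 170539226 UMIs, and 6108 to 7816 cells were kept in each, with a median of 17284 to 21950.5 UMIs per cell. Cells were grouped into 28 clusters without use of the 10 genes, and 1 cluster was split further. Cluster names come from marker genes and stand for likeness only (microglia means microglia-like, T cells T-cell-like). The microglia were clusters 0, 1, 3, 5, 7, 11, 13 and 21. Clusters 2 and 4, with Spp1 (osteopontin) between 10427 and 15880 CPM in every library, were kept apart as Spp1-high myeloid cells. Cluster 7 of the microglia came close, with 7658, 10204, 9940 and 10587 CPM of Spp1. It was below clusters 2 and 4 within each library, but its highest library was above the lowest of cluster 2. It counted as microglia by its microglia markers, so a high Spp1 level was not particular to clusters 2 and 4. The macrophages were cluster 9 and sub-clusters 0 and 1 of cluster 15, the first of them called Mrc1 macrophages here after a leading gene; the 10 microglia markers still summed to 1837 to 2217 CPM in them, against 1079 to 1342 CPM for the 10 macrophage markers. Cluster 13, which interferon-response genes lead, held 440 cells of IgG replicate 1 and 71, 68 and 108 cells of the other libraries. Any pair of libraries shared 7 to 23 cell barcodes. Levels are in CPM, the UMIs of a gene scaled to 1e+06 UMIs of the same cells in the same library. Values of the 4 libraries are always given in the order IgG replicate 1, IgG replicate 2, Anti-CD8 replicate 1 and Anti-CD8 replicate 2, and means are ± SD over the 4 libraries. Since clusters were made from the same cells, differences between clusters are described without a test.

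RefSeq promoters on build GRCm38.p6 were matched by symbol for Plin2, Cd36, Olr1, Soat1, Lipa and Npc2, and the 250 bases before the start of transcription were read in each. They are shown for Olr1, whose level followed a different order over clusters from that of the other genes, and for Plin2 and Lipa, which shared their 2 highest clusters. Capitals mark the match to a motif, and each sequence runs 5′ to 3′ along the gene.
Olr1, chr6:129507166-129507415, minus strand: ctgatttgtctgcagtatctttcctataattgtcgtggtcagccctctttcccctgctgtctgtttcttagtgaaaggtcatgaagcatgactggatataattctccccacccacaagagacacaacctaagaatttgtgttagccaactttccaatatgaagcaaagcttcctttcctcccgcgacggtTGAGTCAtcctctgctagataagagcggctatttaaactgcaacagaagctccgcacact
Plin2, chr4:86670060-86670309, minus strand: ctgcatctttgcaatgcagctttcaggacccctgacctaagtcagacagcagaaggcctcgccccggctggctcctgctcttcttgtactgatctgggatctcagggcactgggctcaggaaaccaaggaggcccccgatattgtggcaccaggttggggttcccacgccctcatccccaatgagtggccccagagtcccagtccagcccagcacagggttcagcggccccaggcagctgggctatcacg
Lipa, chr19:34527475-34527724, minus strand: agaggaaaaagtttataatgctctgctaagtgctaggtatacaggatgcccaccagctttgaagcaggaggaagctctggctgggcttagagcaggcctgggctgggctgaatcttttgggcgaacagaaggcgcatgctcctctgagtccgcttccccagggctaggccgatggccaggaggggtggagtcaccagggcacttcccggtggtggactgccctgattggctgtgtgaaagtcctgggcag

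Searched on both strands were CACGTG, the E-box bound by the lysosomal regulators TFEB and MITF, TGANTCA, the AP-1 motif, the direct repeat bound by PPAR with RXR, and the NF-kappaB motif. Among all 27025 promoters of this length, CACGTG was found in 6.05%, TGANTCA in 6.87%, the PPAR repeat in 0.037% and the NF-kappaB motif in 1.40%. The 6 promoters held 1 match in all, the AP-1 motif of Olr1, whose leftmost base lies at position -60 from the start. None of the motifs searched was in the window of the other 5 promoters.

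Each gene had its own order of levels over the 23 clusters with at least 20 cells in every library, of which 13 were microglia, Spp1-high cells or macrophages. Cluster 9, macrophages led by Acp5, Anxa1, Gdf3 and F13a1, and cluster 4, Spp1-high cells led by Atp6v0d2 and Gpnmb, were the 2 highest clusters for Plin2, Fabp4, Fabp5, Soat1, Lipa and Npc1. Cd36 and Msr1 were highest in the Mrc1 macrophages, led by Mrc1, Ccl8 and Cd163. Olr1 was highest in clusters 7 and 5, microglia led by cytokine genes such as Il23a, Il12b and Il1b.

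**Figure D1:**
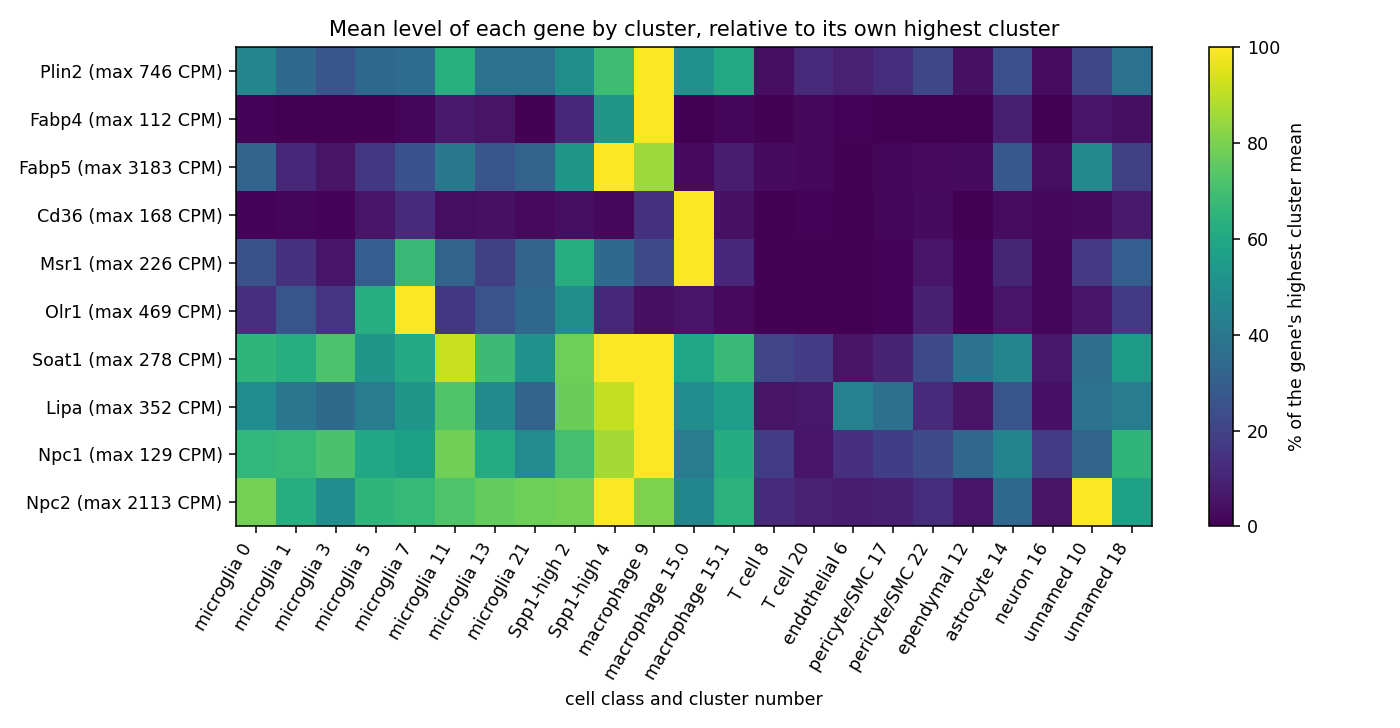
Mean CPM over the 4 libraries for each gene (rows) in each cluster (columns, grouped by class), coloured as percent of the gene's own highest cluster, whose mean is printed beside the name. Fabp4 and Cd36 are bright in 1 or 2 columns, whereas Soat1, Npc1 and Npc2 are bright over most myeloid clusters, whose means differ by at most 1.96-fold, 2.36-fold and 2.18-fold.

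Of the scavenger receptors, Cd36 was the one most restricted to a single cluster. In the Mrc1 macrophages it measured 119.5, 163, 194 and 195 CPM (168 ± 35.6, n = 4), and in the next cluster, 9, it measured 28.7, 28.9, 20.1 and 17.9 CPM. Every library of the Mrc1 macrophages was above every library of the other clusters compared, and cluster 9 overlapped cluster 7 (17.6, 18.3, 22.0 and 20.9 CPM). They were few, with 28, 32, 54 and 55 cells. Dendritic cells with Xcr1 and Clec9a (sub-cluster 4 of cluster 15, 45 cells) had too few cells per library for this order, and 77 Cd36 UMIs over the 4 libraries, or 96.8 CPM with an exact 95% interval of 76.4 to 121 CPM that covers counting error only. Endothelial cells, which carry Cd36 in many tissues, measured 0.149, 0.558, 1.55 and 0.273 CPM here.

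A minority of the Mrc1 macrophages held Cd36 UMIs. After each cell was thinned to 2000 UMIs, 16.1% ± 6.88 of them had at least 1 Cd36 UMI, and 38.9% without thinning. In T cells, which should lack Cd36, the thinned share was 0.105% and the share without thinning 0.323%. The median depth was 8134 to 12100 UMIs in the Mrc1 macrophages and 5918.5 to 7211.5 UMIs in T cells. Of the 169 Mrc1 macrophages, 104 had no Cd36 UMI, and the 17 cells with the most held 65.5% of the UMIs.

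Msr1 shared its highest cluster with Cd36 but had a broader order. It measured 274, 183, 230 and 217 CPM in the Mrc1 macrophages (226 ± 37.3, n = 4), 124, 147, 167 and 173 CPM in cluster 7, and 117, 135, 157 and 152 CPM in cluster 2. The Mrc1 macrophages were above clusters 7 and 2 in every library, while clusters 7 and 2 overlapped. Clusters 1 and 3, microglia with homeostatic genes such as Crybb1, Siglech and P2ry12 among their leading genes, were lower. The chemokine genes Ccl3 and Ccl4 were also among the leading genes of cluster 3, which had 14.97, 11.9, 14.9 and 13.8 CPM. After thinning, 28.4% ± 0.981 of Mrc1 macrophages had an Msr1 UMI (63.4% without thinning), against 0.370% of T cells (0.787% without thinning).

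Olr1, the third receptor, had its highest levels in cytokine-expressing microglia. It measured 416, 443, 455 and 562 CPM in cluster 7 (469 ± 63.8, n = 4), 225, 285, 316 and 345 CPM in cluster 5 and 191, 262, 233 and 244 CPM in cluster 2. Cluster 7 was above cluster 5 in every library, and clusters 5 and 2 overlapped. In cluster 4, the other Spp1-high cluster, it was 43.2, 68.9, 42.9 and 56.0 CPM, below every library of cluster 2, and in macrophage cluster 9 the mean was 18.3 CPM. After thinning, 46.7% ± 4.59 of cells of cluster 7 had an Olr1 UMI (87.6% without thinning), against 0.343% of T cells (1.44% without thinning). Microglia of cluster 3 kept a measurable level, with 46.4, 85.6, 56.6 and 98.0 CPM.

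**Figure D2:**
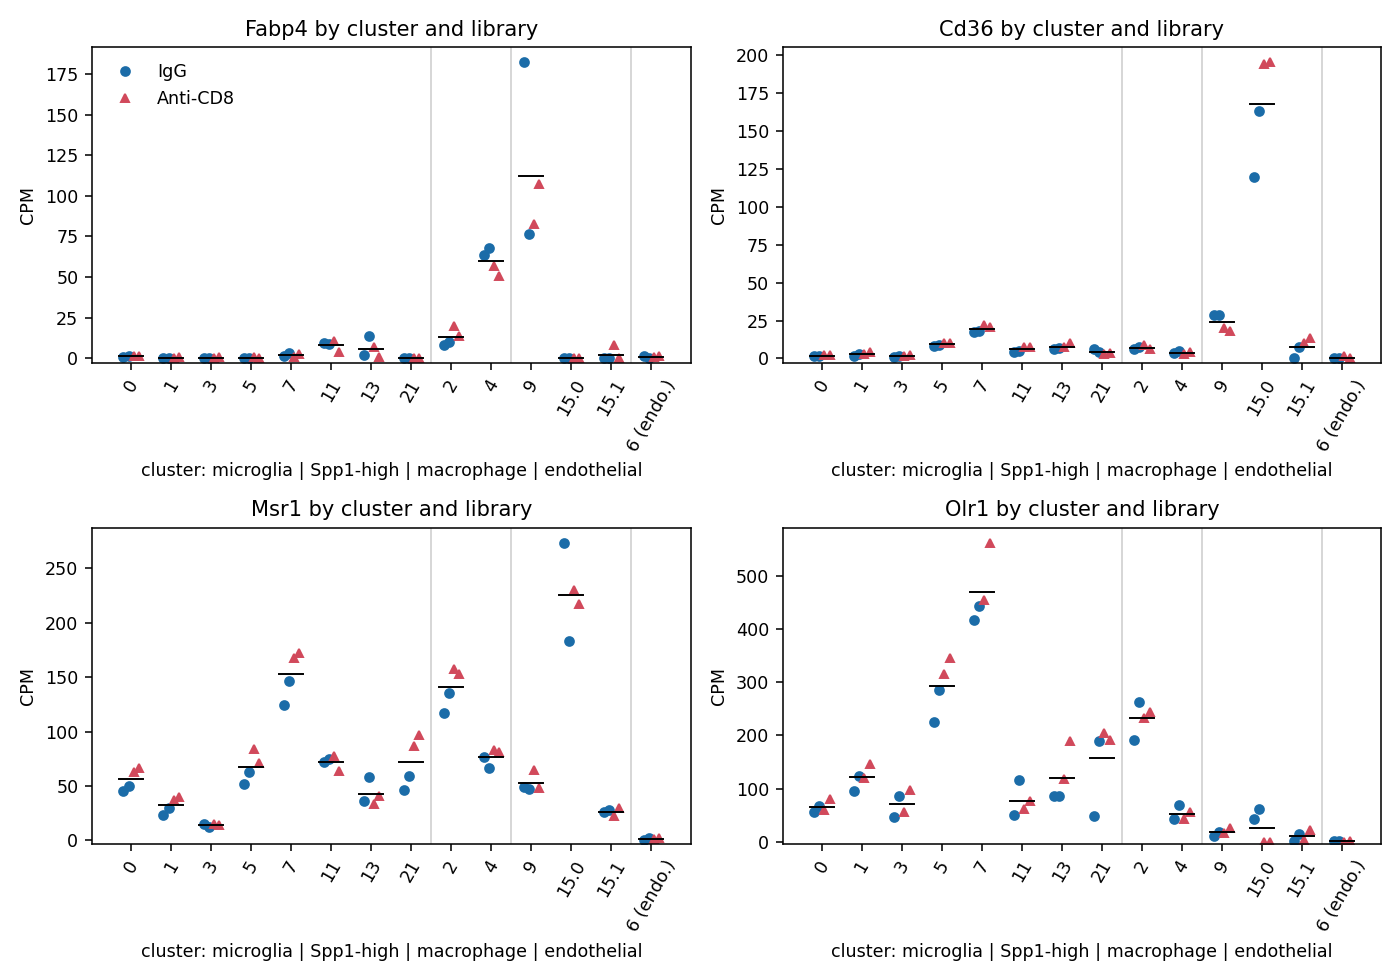
CPM of Fabp4, Cd36, Msr1 and Olr1 by cluster, with 1 symbol per library (circles IgG, triangles Anti-CD8) and a bar at the mean. Olr1 peaks in clusters 7 and 5 (means 469 and 293 CPM), Cd36 and Msr1 in the Mrc1 macrophages, sub-cluster 0 of 15 (168 and 226 CPM) and Fabp4 in 9 and 4 (112 and 59.6 CPM), and in endothelial cluster 6 the mean of each gene is at most 1.56 CPM.

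Of the fatty acid carriers, Fabp4 was highest in clusters 9 and 4, with a lower level in cluster 2. It measured 182, 76.6, 82.8 and 107 CPM in cluster 9 (112 ± 48.5, n = 4) and 63.6, 67.8, 56.7 and 50.3 CPM in cluster 4. Both stood above cluster 2, with 8.18, 10.2, 19.7 and 13.8 CPM, in every library. IgG replicate 1 was the highest library in cluster 9. No Fabp4 UMI was counted in the 169 Mrc1 macrophages, the cells with the highest Cd36 level, which allows up to 2.10 CPM (upper end of the exact 95% interval, counting error only). Of the 8208 Fabp4 UMIs in kept cells, 56.3% lay in Spp1-high cells and 36.0% in macrophages. By cluster, 2950 lay in cluster 9, 3581 in cluster 4 and 1039 in cluster 2.

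Fabp4 was also uneven from cell to cell within its clusters. In cluster 9, 961 of 1305 cells had no Fabp4 UMI, the 131 cells with the most held 83.9% of the UMIs, and the highest cell had 176. In cluster 4, 1469 of 1973 cells had none, the 198 cells with the most held 87.3%, and the highest cell had 180. For comparison, the 131 cells of cluster 9 with the most Plin2 held 30.8% of its Plin2 UMIs. After thinning, 8.10% ± 3.60 of cells of cluster 9, 5.75% ± 0.688 of cluster 4 and 2.09% ± 0.834 of cluster 2 had a Fabp4 UMI. Without thinning the shares were 26.8%, 25.6% and 11.7%. Among T cells no thinned cell had one, and the share without thinning was 0.491%.

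Fabp5 was spread more widely. It measured 3325, 3240, 3106 and 3059 CPM in cluster 4 (3183 ± 122, n = 4), 3093, 2710, 2156 and 2914 CPM in cluster 9 and 1538, 1699, 1703 and 1795 CPM in cluster 2. Clusters 4 and 9 overlapped, and both were above cluster 2. Among microglia the means ran from 172 CPM in cluster 3 to 1277 CPM in cluster 11, and endothelial cells had 22.5 CPM. Spp1-high cells held 51.7% of all Fabp5 UMIs and 24.3% of all UMIs. Fabp5 reads can be shared with near-identical copies: the listed copy Fabp5l2 had 45, 69, 53 and 82 UMIs over all cells, and how the counting treated reads that match several copies is not given in the sources used here.

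Of the lysosomal genes, Lipa and Npc2 were also measured well outside the myeloid cells. Lipa had 395, 347, 321 and 344 CPM in cluster 9 (352 ± 30.9, n = 4) and 343, 322, 310 and 300 CPM in cluster 4, and these ranges overlapped. Endothelial cells had 134.7, 155, 162 and 163 CPM and pericytes of cluster 17 had 129.6, 120, 134 and 133 CPM. The endothelial level was above that of the microglia of cluster 3, with 127, 115, 119 and 123 CPM, in every library. Neurons of cluster 16 had a mean of 17.8 CPM and ependymal cells had 20.3, 18.6, 16.6 and 16.6 CPM. The microglia markers summed to 134 to 177 CPM in endothelial cells, against 4947 to 5566 CPM in microglia. Npc2, the carrier inside the lysosome, was high in all 13 myeloid clusters, from 2113 ± 87.8 CPM in cluster 4 down by at most 2.18-fold. In the other 6 classes tested its mean ran from 119 CPM in ependymal cells to 706 CPM in astrocytes, with 173 CPM in endothelial cells and 200 CPM in pericytes. Npc1, the exporter, had 137, 124, 136 and 118 CPM in cluster 9 and 111, 109, 118 and 110 CPM in cluster 4, and its myeloid means differed by at most 2.36-fold.

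Of the storage genes, Soat1 was nearly level over the myeloid clusters, with at most a 1.96-fold difference between means. It measured 291, 281, 258 and 282 CPM in cluster 9 and 269, 277, 273 and 291 CPM in cluster 4, which overlapped. Ependymal cells had 92.2, 120, 102 and 108 CPM, and endothelial cells 14.8 CPM on average. Plin2 had 809, 713, 701 and 759 CPM in cluster 9 (746 ± 49.4, n = 4) and 541, 514, 483 and 521 CPM in cluster 4. Cluster 9 was above cluster 4 in every library, and cluster 4 overlapped cluster 11 (544, 459, 429 and 446 CPM). Outside the myeloid clusters Plin2 was found in every class, at 69.4 CPM in endothelial cells and 25.5 CPM in neurons of cluster 16, the lowest mean.

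**Figure D3:**
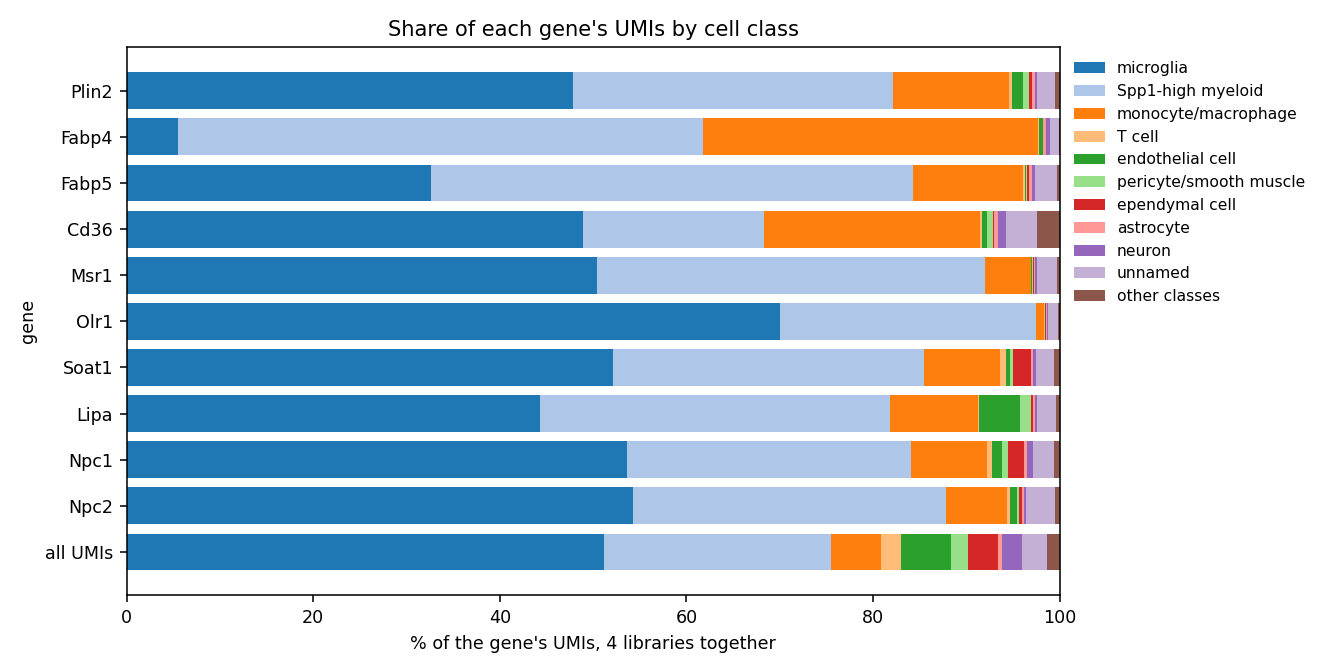
Percent of each gene's UMIs in kept cells, 4 libraries together, by class (colours), with all UMIs in the bottom bar. Microglia hold 70.0% of Olr1 and 5.46% of Fabp4 UMIs but 51.2% of all UMIs, and the green endothelial band is widest for Lipa, at 4.39%.

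Over the 13 myeloid clusters the genes fell along different patterns. These correlations of log2(CPM + 1) describe clusters that share the same 4 libraries and differ in depth, so they carry no test. Fabp5 and Npc2 followed each other most closely (r = 0.94, n = 13), followed by Fabp4 and Lipa (0.91), Fabp4 and Soat1 (0.89) and Soat1 and Npc1 (0.87). Cd36 and Msr1 had r = 0.69. Olr1 had r between -0.56 (with Plin2) and 0.35 (with Fabp5).

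Among 17930 genes, those whose level over the 23 clusters was most like each member's were named by the same correlation. For Olr1 they were Abhd17c (0.92), the receptor gene Hcar2 (0.92) and the cytokine gene Il1a (0.91). For Cd36 they were the chemokine gene Pf4 (0.89), Cd300ld (0.84) and Tfec (0.83), and for Msr1 the oxidase subunit gene Cybb (0.95), Cd300ld (0.95) and Trf (0.94), which encodes transferrin. For Fabp4 they were S100a8 (0.92), Prss46 (0.90) and Gm19253 (0.89), and for Fabp5 the phospholipase family gene Pld3 (0.96), Gm18103 (0.96) and Apoc4 (0.95). For Lipa they were Akr1a1 (0.95), Anxa4 (0.94) and Sdcbp (0.93), for Npc1 Gpr137b (0.94) and Cebpa (0.94), and for Npc2 Cd68 (0.97), Tyrobp (0.97) and Tnni2 (0.97). For Soat1 they were Tent5c (0.94), Rilpl2 (0.92) and Abcc3 (0.92), and for Plin2 Ninj1 (0.94), Dhrs3 (0.93) and Paox (0.93).

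The antibody comparison asked whether these genes differed between Anti-CD8 and IgG within a class. Cd8a, which encodes the antibody's target, had 338.7, 245, 176 and 99.98 CPM in T cells. UMIs of a class were added up in each library, and edgeR's quasi-likelihood test was run on the sums of all genes. The p-values were adjusted by Benjamini-Hochberg over every gene tested in the class, and called here means an adjusted p under 0.05. No member was called in any of the 9 classes tested, in cluster 2 or in cluster 4, by edgeR or by DESeq2. An exact permutation test of 2 libraries against 2 cannot give a p below 0.33. A log2 fold change compares Anti-CD8 with IgG, is positive where Anti-CD8 is higher, and has its standard error (SE) from the test.

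In microglia, 0 of 10 members were called, and 0% of all 18150 genes tested were called. By unadjusted p under 0.05 there was 1, Fabp4, and none by DESeq2, beside 1559 and 797 of all 18150 genes. Fabp4 had 1.58, 1.88, 1.42 and 1.22 CPM, lower in both Anti-CD8 libraries (log2 fold change -0.45, SE 0.18, adjusted p = 0.564). When the 10 members were allowed among the variable genes for clustering, of which 3 were taken, this value turned to 0.15. Msr1 had 53.2, 65.4, 67.3 and 73.3 CPM, higher in both Anti-CD8 libraries (0.19, SE 0.099, adjusted p = 0.622; 0.05 to 0.34 with 1 library left out). Olr1 had 139, 201, 164 and 235 CPM, and its groups overlapped (0.17, SE 0.21). Plin2, Lipa and Npc2 had -0.14, -0.14 and -0.13. The median of the 10 was -0.06, beside 0.0011 over all genes, and 6 of 10 were below 0.

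The count of members whose groups did not overlap turned on the scaling. On plain CPM both Anti-CD8 libraries were above both IgG libraries for 2 microglial members (Msr1 and Npc1; 32.5% of all genes) and below for 2 (Fabp4 and Npc2; 10.9%). On TMM-scaled CPM, which corrects for composition, they were above for 0 (20.2%) and below for 5 (Fabp4, Lipa, Npc2, Plin2 and Soat1; 21%). In Spp1-high cells they were above for 1 (28.4%) and below for 3 (12.4%) on plain CPM, and above for 1 (19.2%) and below for 4 (19.5%) on TMM-scaled CPM. In macrophages the counts were 0 above (24.9%) and 3 below (11.7%), and 0 (17.6%) and 3 (17%).

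In Spp1-high cells the member with the smallest p was Msr1. It had 100.1, 104, 125 and 123 CPM, a mean of 102 ± 2.99 with IgG and 124 ± 0.869 with Anti-CD8 (n = 2 each), and the groups did not overlap. The log2 fold change was 0.24 (SE 0.054), with an adjusted p of 0.442. In the list of 10, 3 members had an unadjusted p under 0.05 (2 by DESeq2), beside 1155 of all 15506 genes (449 by DESeq2). No member was called, and 0% of all 15506 genes were called. Plin2 had 453, 434, 409 and 425 CPM (-0.13, SE 0.056, adjusted p = 0.659) and Lipa had 310, 292, 286 and 282 CPM (-0.13, SE 0.056, adjusted p = 0.670), both lower in the Anti-CD8 libraries. The median of the 10 was -0.05, beside 0.0010 over all genes, and 8 of 10 were below 0.

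**Figure D4:**
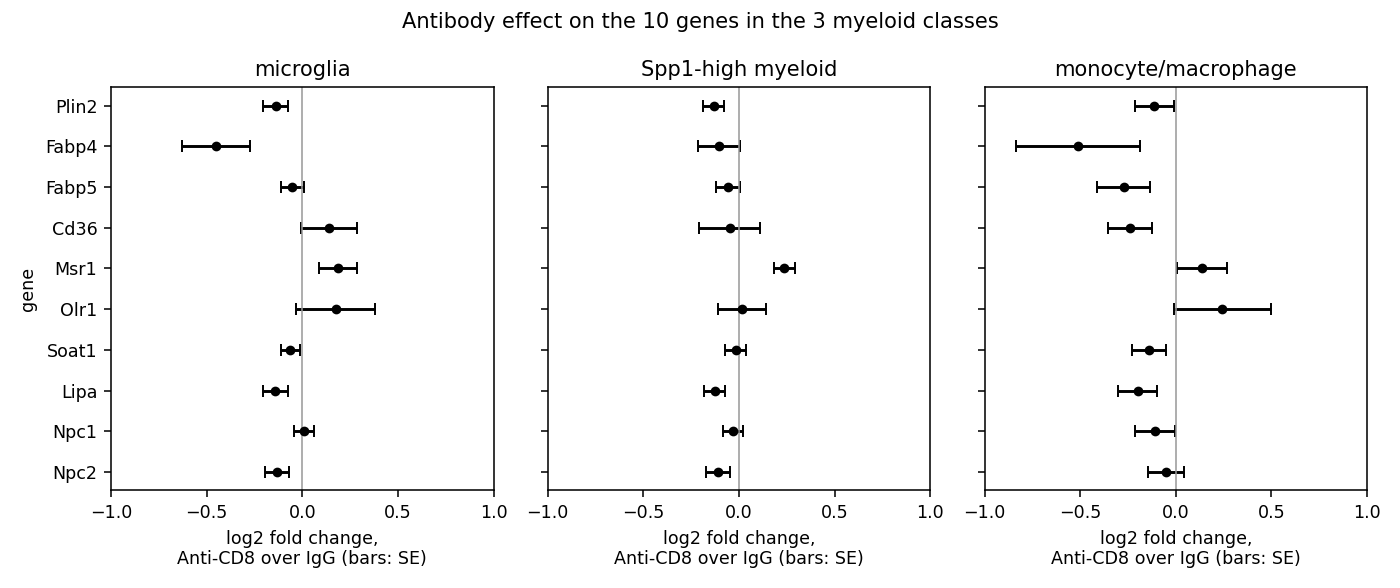
Log2 fold change of each of the 10 genes, Anti-CD8 over IgG, with bars of 1 SE, in microglia, Spp1-high myeloid cells and macrophages. The Spp1-high value of Msr1 (0.24) lies farthest from 0 in units of its SE; the lowest values are those of Fabp4 in microglia (-0.45) and macrophages (-0.51), with wide bars, and none passed the adjusted threshold.

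In macrophages 0 of 10 members were called, beside 0.0163% of all genes. None had an unadjusted p under 0.05, by edgeR or by DESeq2, beside 639 and 146 of all 12250 genes. Fabp4 had 162, 66.6, 72.3 and 91.4 CPM, where the IgG libraries lay on both sides of the Anti-CD8 libraries (-0.51, SE 0.33, adjusted p = 0.943). Without IgG replicate 1 the value was 0.28, and without IgG replicate 2 it was -1.05, so a single IgG library set its sign. Cd36 had 31.6, 34.3, 30.4 and 27.5 CPM (-0.24, SE 0.11), Lipa 373, 321, 304 and 320 CPM (-0.20, SE 0.10) and Soat1 279, 268, 248 and 265 CPM (-0.14, SE 0.088), each lower in both Anti-CD8 libraries with an adjusted p of 0.943. For Cd36 the direction depended on the cells taken. It was 0.45 in the Mrc1 macrophages alone and -0.66 in cluster 9 alone. In the class it was 0.14 when the members were allowed among the variable genes. Fabp5 had -0.27 (-0.51 to -0.07 with 1 library left out). The median of the 10 was -0.13, beside 0.0036 over all genes.

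The antibody effect on a member was not shown to differ between these classes. In fits of the difference with the library as a block, 0 of 10 members were called for Spp1-high cells against microglia (0% of all genes called) and for macrophages against microglia (0.00571% of all genes called), by edgeR and by DESeq2. By unadjusted p under 0.05 there were 1 and 2 members in the same fits by edgeR, and 0 by DESeq2. The count of all genes at that unadjusted p was not taken in these fits.

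Within the Spp1-high cells, the log2 fold changes of Fabp4 had opposite signs in clusters 2 and 4. In cluster 2 it had 172, 184, 385 and 298 UMIs, or 8.18, 10.2, 19.7 and 13.8 CPM, higher in both Anti-CD8 libraries (0.84, SE 0.18, adjusted p = 0.331). In cluster 4 it had 976, 992, 861 and 752 UMIs, or 63.6, 67.8, 56.7 and 50.3 CPM, lower in both (-0.34, SE 0.078, adjusted p = 0.436). Neither passed the threshold. In cluster 2, 2 of 10 members had an unadjusted p under 0.05 by edgeR and 2 by DESeq2. Of all 14058 genes there, 970 had one by edgeR and 345 by DESeq2, and 0.0213% were called. In cluster 4, 4 of 10 members had an unadjusted p under 0.05 by edgeR and 4 by DESeq2. Of all 13596 genes there, 976 had one by edgeR and 304 by DESeq2, and 0.0221% were called.

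The difference itself was tested after these values had been seen. The Fabp4 effect in cluster 2 minus that in cluster 4 was 1.18 (SE 0.14; edgeR, adjusted p = 0.0047 over 14365 genes), the only member called, beside 0.0139% of all genes. DESeq2 gave 1.17 (adjusted p = 0.00048). Without IgG replicate 1 it was 1.06 (adjusted p = 0.0020) and without IgG replicate 2 it was 1.31. Without Anti-CD8 replicate 1 it was 1.00 (adjusted p = 0.544) and without Anti-CD8 replicate 2 it was 1.35 (adjusted p = 0.137), so the call rested on having both. The UMIs sat in few cells: in cluster 2, 572 of 640, 465 of 525, 603 of 696 and 622 of 702 cells had none, and the highest cell of each library had 12, 20, 31 and 38 UMIs. The macrophage markers summed to 241, 295, 291 and 295 CPM in cluster 2 and to 407, 374, 423 and 364 CPM in cluster 4, and their part in the result was not tested.

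**Figure D5:**
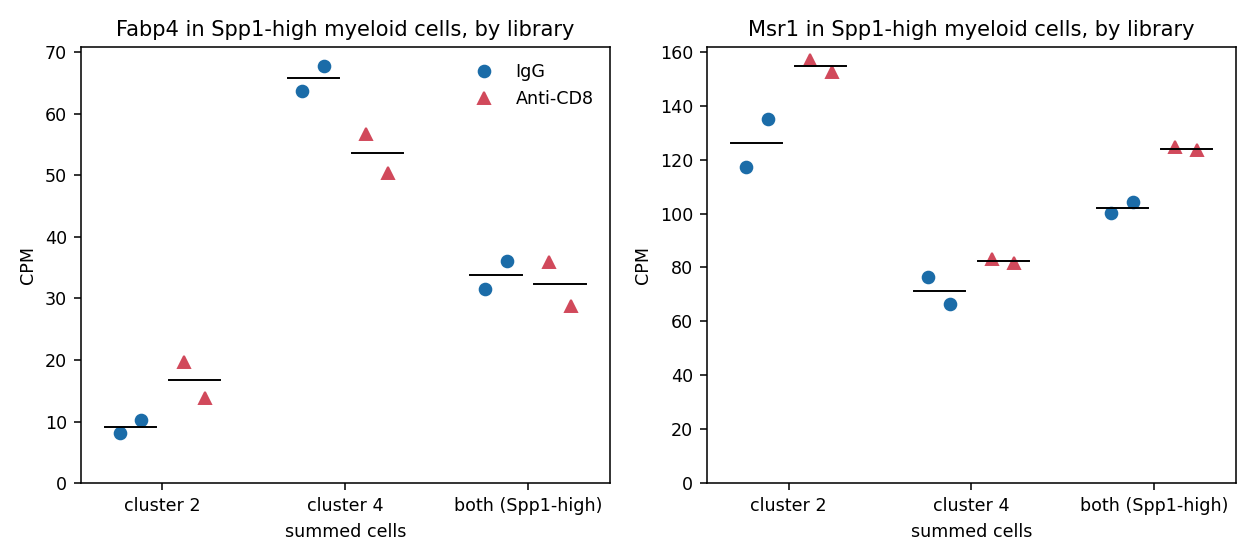
CPM of Fabp4 (left) and Msr1 (right) in clusters 2 and 4 and in both together, with 1 symbol per library (circles IgG, triangles Anti-CD8) and a bar at the group mean. Fabp4 with Anti-CD8 is higher in cluster 2 (9.20 to 16.8 CPM) and lower in cluster 4 (65.7 to 53.5 CPM), while Msr1 is higher in both.

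Msr1 was higher in both Anti-CD8 libraries in either cluster. It had 117, 135, 157 and 152 CPM in cluster 2 (0.26, SE 0.081, adjusted p = 0.543) and 76.4, 66.3, 83.1 and 81.5 CPM in cluster 4 (0.16, SE 0.076, adjusted p = 0.705). The lysosomal genes Lipa and Npc2 had -0.17 and -0.14 in cluster 4, and Fabp5 had -0.14, each lower in both Anti-CD8 libraries. On plain CPM 3 members were above (24.5% of genes) and 2 below (13.7%) without overlap in cluster 2, and 2 above (18.7%) and 3 below (18.9%) on TMM-scaled CPM. In cluster 4 the counts were 1 above (28%) and 4 below (11.3%) on plain CPM, and 1 above (18.7%) and 5 below (18.8%) on TMM-scaled CPM.

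Outside the myeloid classes no member was called. In endothelial cells, Lipa had 134.7, 155, 162 and 163 CPM (0.16, SE 0.088) and Npc2 168, 167, 174 and 183 CPM (0.08). No member had an unadjusted p under 0.05 by either tool, beside 657 of all 13919 genes by edgeR and 202 by DESeq2. By adjusted p, 0% of all genes were called. In neurons, all 8 tested members were above 0 (median 0.35, beside 0.0045 over all genes), 3 of them without overlap of the groups (21.7% of genes on plain CPM), and 0.189% of all genes were called. Plin2 had 26.5, 20.4, 33.4 and 37.4 CPM there (0.59, SE 0.21, adjusted p = 0.377) and Npc2 125, 98.3, 132 and 166 CPM (0.40, SE 0.18, adjusted p = 0.559). In the same neurons 9 of the 10 microglia markers were detected and summed to 205, 176, 255 and 383 CPM, and their part in these differences was not tested.

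In pericytes Fabp5 had 63.7, 73.8, 60.4 and 36.6 CPM (-0.52, SE 0.20, adjusted p = 0.860), Npc2 206, 234, 184 and 175 CPM (-0.33) and Soat1 38.6, 29.2, 26.9 and 23.7 CPM (-0.45), all lower in both Anti-CD8 libraries, and 0.0734% of all genes were called. The Fabp5 value moved to -0.98 when Anti-CD8 replicate 1 was left out and to -0.20 when Anti-CD8 replicate 2 was, and Soat1 ran from -0.65 to -0.23 with 1 library left out. In ependymal cells Fabp5 had 81.4, 68.4, 99.0 and 102 CPM (0.41, SE 0.15) and Olr1 5.50, 6.71, 0.840 and 4.63 CPM (-1.27, SE 0.57), and 0.00701% of all genes were called. The Olr1 value was 0.62 without doublet removal; it moved to -0.41 when Anti-CD8 replicate 1 was left out and to -2.80 when Anti-CD8 replicate 2 was. By unadjusted p under 0.05 there were 3 members in pericytes (0 by DESeq2), beside 614 of all 12256 genes (166 by DESeq2). In ependymal cells there were 2 (1 by DESeq2), beside 332 of 14265 genes (99 by DESeq2). In neurons there was 1 (0 by DESeq2), beside 1278 of 13738 genes (637 by DESeq2). In astrocytes and T cells there were 0 by either tool, beside 454 of 8062 and 1275 of 10389 genes by edgeR (132 and 600 by DESeq2). By adjusted p, 0% of all genes were called in astrocytes and 0.578% in T cells. In T cells the Anti-CD8 libraries were above both IgG libraries for 1 member, Lipa (23.3% of genes on plain CPM, 21.1% on TMM-scaled CPM), and below for 0 (19.3% and 22.3%).

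Other genes of lipid handling were read from 5 lists: 18 lipid droplet proteins and enzymes, 12 genes of fatty acid uptake and activation, 15 other scavenger and lipoprotein receptors, 16 lysosomal lipid genes and 13 transcriptional regulators. Of all these, edgeR called 1 gene in 1 class. DESeq2 called 3 list genes in microglia, 1 in Spp1-high cells, 1 in cluster 2 and 1 in T cells. Over all genes it called 40 higher and 49 lower of 18150 in microglia, and 6 and 16 of 15506 in Spp1-high cells. In cluster 2 it called 7 higher and 17 lower of 14058, and in T cells 95 and 30 of 10389. Dgat1, which makes the triglyceride stored in droplets, rose in T cells with Anti-CD8, with 233, 273, 522 and 480 CPM (0.96, SE 0.11, adjusted p = 0.0133, beside 0.578% of all genes called); DESeq2 called it too. The T-cell class differed in makeup between the groups, with 709, 501, 273 and 171 CPM of Cd8b1 and 8.64, 40.5, 67.7 and 60.5 CPM of Cd4, and the part of this in the result was not tested.

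In the 3 myeloid classes no list gene was called by edgeR. In microglia 66 of the 74 were tested and 17 had an unadjusted p under 0.05 (3 called by DESeq2). In Spp1-high cells 64 were tested and 9 had one (1 called by DESeq2). In macrophages 60 were tested and 6 had one (0 called by DESeq2). Over all genes, 1559 of 18150 had one in microglia, 1155 of 15506 in Spp1-high cells and 639 of 12250 in macrophages. Of the lysosomal genes, 14 of 16 were below 0 in microglia (median -0.07), 13 of 16 in Spp1-high cells (-0.05) and 10 of 16 in macrophages (-0.05). Of the lipid droplet genes it was 8 of 13 (-0.09), 9 of 12 (-0.09) and 7 of 9 (-0.07), and of the fatty acid genes 7 of 12 (-0.04), 7 of 12 (-0.07) and 6 of 11 (-0.12). Of the other receptors it was 10 of 13 (-0.08), 11 of 12 (-0.08) and 5 of 12 (0.02), and of the regulators 8 of 12 (-0.09), 9 of 12 (-0.02) and 8 of 12 (-0.04). Over all genes 49.7% were below 0 in microglia, 49.7% in Spp1-high cells and 49.3% in macrophages.

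Of single list genes in the myeloid classes, Colec12, a collectin scavenger receptor, had 150.2, 132, 106 and 92.8 CPM in microglia (-0.56, SE 0.085, adjusted p = 0.248). Lpl, lipoprotein lipase, had 543, 519, 410 and 453 CPM there (-0.36, SE 0.068, adjusted p = 0.339). In Spp1-high cells Fabp3, a further fatty acid carrier, had 93.6, 84.5, 73.8 and 68.6 CPM (-0.36, SE 0.067, adjusted p = 0.240) and Cebpa, a myeloid transcription factor, 77.3, 71.9, 61.9 and 64.6 CPM (-0.28). In macrophages Cebpa had 137, 117, 94.5 and 103 CPM (-0.41). Genes were picked for groups that do not overlap, and none of these 5 comparisons passed the threshold by edgeR. DESeq2 called Colec12 (adjusted p = 1.2e-05) and Lpl (0.0031) in microglia and Fabp3 (0.032) in Spp1-high cells, and called Cebpa in neither class.

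Fabp3 was also lower in both Anti-CD8 libraries in cluster 2 (-0.39, called by DESeq2 at an adjusted p of 0.045 and not by edgeR) and cluster 4 (-0.33, called by neither). Pparg, a nuclear receptor for fatty acids, had 14, 20, 40 and 46 UMIs in cluster 2, or 0.666, 1.11, 2.05 and 2.13 CPM (1.22, SE 0.32, adjusted p = 0.408). In cluster 4 Cebpa had -0.30. In the remaining classes the named list genes, each picked for groups that did not overlap and none called by edgeR, were Lipe (-0.32) and Gm2a (0.32) in endothelial cells, Trem2 (0.75) in neurons, Cd68 (-0.66) and Trem2 (-0.33) in pericytes, Lpl (-1.30) and Ppara (-1.48) in ependymal cells, and Cxcl16 (1.37) and Srebf1 (-1.01) in astrocytes. Trem2 and Cd68 are genes of phagocytes. In pericytes the microglia markers summed to 333, 378, 345 and 341 CPM, and their part was not tested. In astrocytes Cxcl16 had 20, 41, 44 and 135 UMIs and Srebf1 22, 61, 9 and 38 UMIs, in 43, 120, 107 and 266 cells.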

How the data were processed

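The deposited values are UMI counts of each gene in each barcode, whole numbers that were not normalised. Per the submitters' processing notes the authors used Cell Ranger 7.1.0 and build GRCm39; which annotation release was used, and whether intronic reads counted, was not given in the sources used here. These 10 genes, the lists and the tests were chosen with earlier results of these data known. Barcodes under 300 genes or over 20% mitochondrial UMIs were left out, as were those with the highest Scrublet doublet scores (332, 353, 511 and 562 barcodes). Clustering used scanpy 1.11.5 with leidenalg 0.10.2 (3000 variable genes without the 10 members, 30 components, 15 neighbours, resolution 1). Naming asked that a class's markers average a log2 fold of 1.5 or more and lead the next class by 0.3; the rest were microglia where at least 5 microglia markers reached 2 times their level in the named macrophage cluster, macrophages where at least 3 macrophage markers reached 2 times their microglial level, and Spp1-high at 2 times the Spp1 level of all cells. Clusters 10 (shallow) and 18 (proliferating) stayed unnamed.

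Counts were summed per library and class (at least 20 cells in each) and tested with edgeR 4.0.16 (R 4.3.3; quasi-likelihood, TMM, filterByExpr), the 2 Anti-CD8 against the 2 IgG libraries; DESeq2 1.42.0 was an alternative. SE was taken as the size of the log2 fold change over the root of F. All 10 members are named; of the lists, the genes called in a class, or else the 2 with the smallest p whose groups do not overlap; and for each member the 3 genes most correlated over clusters (at least 50 UMIs in each library); some genes that this rule names are not reported here. Libraries differed from each other beyond sampling noise. Intervals are exact (Clopper-Pearson) and, like floors, cover counting error only.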

Additional observations from a re-analysis of the deposited data

Results flagged for a closer look

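Fabp4 had log2 fold changes of opposite sign in clusters 2 and 4 of the Spp1-high myeloid cells, and the difference of the log2 fold changes was 1.18 (SE 0.14, adjusted p = 0.0047 by edgeR over all genes). The pair of clusters was compared after the values had been seen.

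For 6 further members both Anti-CD8 libraries were above both IgG libraries in 1 class and below both in another. No member was called in these classes. The difference was not tested in any of these 6. It was 0.83 for Plin2 between neurons (0.59) and ependymal cells (-0.24), and 0.93 for Fabp5 between ependymal cells (0.41) and pericytes (-0.52). For Olr1 it was 2.33 between astrocytes (1.06) and ependymal cells (-1.27), where it was counted in few UMIs. Without doublet removal the ependymal value was 0.62, so the difference of sign was lost. For Lipa it was 0.79 between T cells (0.38) and astrocytes (-0.42), for Npc1 0.69 between endothelial cells (0.14) and astrocytes (-0.55), and for Npc2 0.73 between neurons (0.40) and pericytes (-0.33). The astrocyte values also rest on few UMIs, 26, 91, 19 and 76 for Lipa and 15, 67, 13 and 43 for Npc1. They came from 43, 120, 107 and 266 cells. Each pair is the highest and the lowest class of that gene whose groups do not overlap. Of all genes, 13.4% (ependymal cells) to 23.3% (T cells) were above without overlap on plain CPM in the higher classes. In the lower classes 12.9% (pericytes) to 16.3% (astrocytes) were below. How many of all genes have such a pair of classes was not counted.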

How the results depend on the processing

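The named log2 fold changes numbered 51. Under alternatives other than a left-out library they gave 318 values, of which 8 lay on the other side of 0 and 26 were past the adjusted threshold; leaving out each library in turn gave 204 values, of which 4 lay on the other side of 0 and 20 were past it. With DESeq2, with library totals in place of TMM and without doublet removal, the count of members called stayed at 0 in every class. Without the expression filter it was 1 in macrophages, 1 in Spp1-high cells, 2 in neurons, 2 in cluster 2 and 2 for cluster 2 minus cluster 4; without the filter, genes with very few UMIs enter the fit. The Mrc1 macrophages alone gave 1, Olr1, from 41 UMIs in 5 cells. Leaving out a library, the count ranged from 0 to 1 in macrophages, neurons, pericytes and cluster 2, and from 0 to 2 in cluster 4 and for cluster 2 minus cluster 4.

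The replicate numbers did not pair the libraries (correlation of same-numbered libraries -0.04 to 0.05); the replicate block gave 2 members called in cluster 2, Fabp4 (0.83) and Msr1 (0.26), and 0 elsewhere.

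Leaving out a library moved Fabp4 between -0.29 and 0.050 in Spp1-high cells and between -1.05 and 0.28 in macrophages, and Olr1 between -0.11 and 0.47 in microglia. The 10 members were also allowed among the variable genes for clustering, and 3 of them were taken. Fabp4 was then 0.15 in microglia and 0.091 in macrophages, and Cd36 0.14 in macrophages. In that clustering its clusters 3, 8, 12, 18 and 21 stayed unnamed. Of the 10 microglia markers, 4, 1, 7, 8 and 0 reached 2 times their level in the named macrophage cluster. Cluster 21 there was led by Anxa1 and Acp5, with Fabp4 and F13a1 among its leading genes. The microglial share of UMIs was 42.5% for Cd36, 34.0% for Lipa, 36.8% for Msr1 and 43.1% for Npc1. It was 42.1% for Npc2, 59.3% for Olr1, 36.7% for Plin2 and 41.8% for Soat1. The Spp1-high share of Fabp5 was 42.2%. The Mrc1 macrophages alone, chosen after seeing the data, gave Cd36 0.45 and Soat1 0.020, and sub-cluster 1 of cluster 15 alone Fabp5 0.16 and Lipa 0.18. Without doublet removal Olr1 in ependymal cells was 0.62. The cause was not tested in these cases. Without thinning, the shares of cells with a UMI were 26.8%, 25.6% and 11.7% for Fabp4 in clusters 9, 4 and 2, 38.9% and 63.4% for Cd36 and Msr1 in the Mrc1 macrophages and 87.6% for Olr1 in cluster 7.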
